A study of Drosophila melanogaster with 4 samples.

Results

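The regions described here are long gaps between neighbouring Sfmbt clusters on the main chromosome arms of Drosophila melanogaster. A cluster, in the authors' lists, is a stretch of sequence significantly enriched in chromatin immunoprecipitation and sequencing (ChIP-seq). Clusters of the combined list that overlapped a cluster in both ChIP replicates by at least 1 bp were called reproducible, and 5405 of them lay on 2L, 2R, 3L, 3R, 4 and X. A gap was an interval of at least 70000 bp between 2 neighbouring reproducible clusters. Of 5399 such intervals, 298 were gaps (5.52%). The gaps were thus chosen from the cluster lists themselves, and what follows on their number, length, flanks and inner calls is a description with no test.

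Sfmbt, written dSFMBT in the labels, belongs to the Polycomb group of repressors. With the DNA-binding protein Pho it forms the Pho repressive complex, which sits at Polycomb response elements and helps to anchor the machinery that keeps developmental genes silent. Its MBT repeats bind methylated histone tails. Much of the fly genome outside such sites is known to be packed in long domains of silent chromatin that hold few regulatory proteins, and the sequence next to each centromere passes into heterochromatin.

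Nuclei came from heads of wild-type Oregon-R flies (stage labelled Mixed Adult) grown in population cages, and the antibody was Q2642. There were 2 ChIP replicates and 2 inputs, all of that strain, stage and genotype, and the inputs were used by the authors in calling clusters. Whole heads mix neurons, glia and other cells, so a site bound in few cells and an unbound site cannot be told apart. The labels do not say whether the replicates came from separate collections of flies, and the spread between them may be technical. Positions are in FlyBase release 5. The score of a cluster is the authors' own, and its log2 scale was inferred from the values. Scores of different lists may be offset by a constant, which would enter the spread between replicates. No gene is assigned to a gap, since the annotation used here describes release 6 and coordinates were not converted, and no sequence is shown for the same reason. Read depth is unknown, and gene density and mappability were not analysed here.

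Together the 298 gaps spanned 36.5 Mb, or 30.3% of the 120 Mb of the main arms. Each replicate's own list, read without the other, gave somewhat less. Replicate 1 had 260 gaps (4.03% of its intervals) that spanned 25.1% of the main arms, and replicate 2 had 282 (4.44%) that spanned 27.7%, a mean of 26.4% ± 1.86 (SD, n = 2). These lists also hold clusters that the other replicate lacks, and each such cluster can end a gap. The replicates' own gaps shared most of their length with each other. Of replicate 1's gap length 90.1% lay in gaps of replicate 2, and of replicate 2's 81.6% lay in gaps of replicate 1. The rule places nearly all of this length inside the 298 gaps, since a reproducible cluster needs a cluster in each replicate. Gaps of replicate 1 covered 82.4% of the length of the 298 and gaps of replicate 2 covered 90.5%. A stretch of at least 70000 bp free of that replicate's clusters was present in 251 of the 298 in replicate 1 (84.2%), in 273 in replicate 2 (91.6%) and in 229 in both.

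Gap lengths spread over a wide range above the threshold. The median length was 108125 bp, with quartiles of 84525 and 143143 bp, against a median of 7614 bp over all intervals. There were 170 gaps (57.0%) of at least 100 kb, 63 of at least 150 kb, 22 of at least 200 kb and 4 of at least 300 kb. The 22 gaps of at least 200 kb held 15.8% of the gap length. The 5 gaps nearest the threshold were 70111, 70359, 70408, 70594 and 70645 bp long. The 5 intervals that just missed it were 69626, 69505, 69484, 69304 and 69172 bp long. Intervals on the 2 sides of the threshold thus differed little in length, and weaker combined-list clusters numbered 1 to 3 in the first 5 and 1 or 2 in the others.

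The gaps lay on every large arm and were scarcest on 2R. There were 68 on 3R, 65 on 2L, 62 on 3L, 59 on X, 44 on 2R and 0 on chromosome 4. Gaps took up 34.6% of 2L, 34.6% of X, 32.1% of 3L, 28.8% of 3R and 23.2% of 2R. In the replicates' own lists 2R was lowest of the large arms in each, with 19.3% in replicate 1 and 21.3% in replicate 2. The next arm, 3R, had 22.6% and 26.5%. The 2 ranges do not overlap, with a mean of 20.3% ± 1.36 (SD, n = 2) on 2R and 24.6% ± 2.83 on 3R. 2L was highest in each, at 30.3% and 31.5%. 3L had 27.6% and 29.0%, below 2L in each replicate. X had 26.9% and 31.2%, below 2L in each replicate, although the ranges of X and 2L overlap. It was below 3L in replicate 1 and above 3L in replicate 2, so the order of X and 3L was not settled. Median gap length ran from 96114 bp on 2R to 114297 bp on 2L. The X combined a median of 103041 bp with 8 of the 22 gaps of at least 200 kb, against 5 each on 2L and 3L and 2 each on 2R and 3R.

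**Figure D1:**
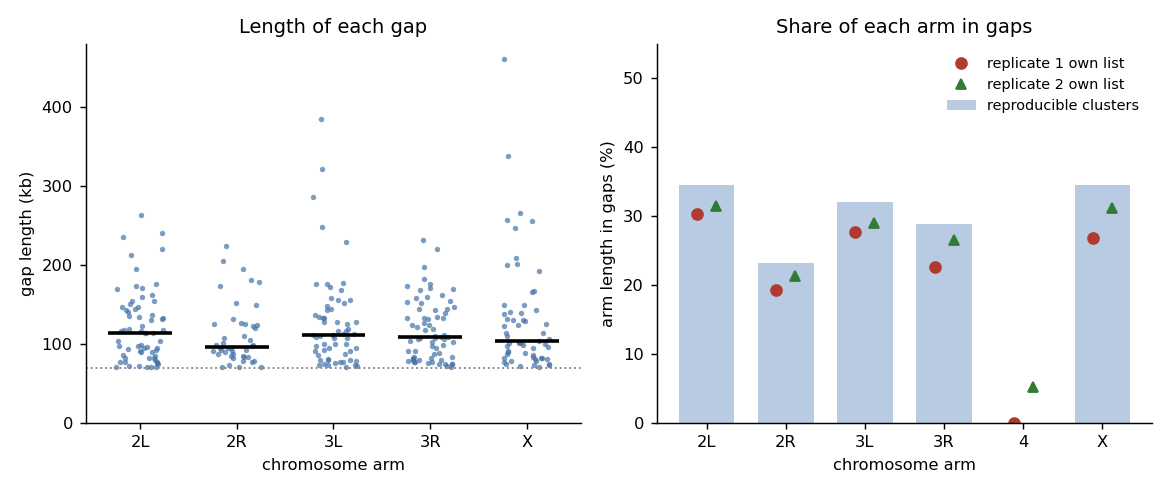
Left, length of each of the 298 gaps (points, kb) by chromosome arm, with the median as a black line and the 70 kb threshold dotted. Right, percent of each arm's length in gaps between reproducible clusters (bars) and between clusters of each replicate's own list (points); 2R is the lowest large arm in all 3, and chromosome 4 has 1 gap in replicate 2 only.

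The sequence next to the centromere held more gap length than the rest of the arms, and the 5 longest gaps of all lay there. Each arm was divided from its telomeric end into 10 sections of equal length, numbered 1 to 10, so that section 10 is next to the centromere. Section 10 was 48.3% gap over the 5 large arms, against 28.7% of the remaining length. In the replicates' own lists these values were 42.6% against 23.4% in replicate 1 and 42.2% against 26.4% in replicate 2. The means were 42.4% ± 0.28 and 24.9% ± 2.07 (SD, n = 2), and the replicate values do not overlap. The arms were unequal in this. Section 10 was 71.8% gap on X, 62.8% on 3L and 47.9% on 2L, but 34.5% on 2R and 27.4% on 3R, where it was below the 28.8% of the whole arm. Of the 37 gaps with their midpoint in section 10, 7 were among the 22 of at least 200 kb.

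Away from the centromere, gaps were concentrated in sections that differed from arm to arm. On 2L sections 7 and 8 were 60.5% and 54.2% gap, and the longest gap of that arm was in section 7. Section 2 was 48.4% gap on 3R and 47.6% on X, and section 3 was 47.5% on 2R. Section 1, at the telomeric end, was lowest over the 5 arms together, at 21.6%, with section 9 next at 22.3%. The 122016 bp at the telomeric end of 3L, with a reproducible cluster on 1 side only, are not counted there. The order of sections 1 and 9 depends on leaving out such ends. With each arm divided into only 3 equal parts, the arms went opposite ways. From the telomeric to the centromeric part the share in gaps went from 23.6% to 47.5% on 2L and from 26.4% to 35.7% on 3L. It went from 33.4% to 22.7% on 3R and from 30.9% to 21.2% on 2R, and on X it was 35.7% and 34.1%. Over the 5 arms together these opposite trends gave 30.05% and 32.1%. The longest gaps were unevenly placed: of those of at least 200 kb, 3 were centred in the telomeric part, 7 in the middle part and 12 in the centromeric part. In 118 full windows of 1 Mb the median share in gaps was 28.6%. It was 0 in 4 windows, at least 50% in 15 and at least 70% in 3. These 3 were 3L 23000001 to 24000000 at 79.8%, X 21000001 to 22000000 at 73.3% and 2L 17000001 to 18000000 at 70.8%.

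**Figure D2:**
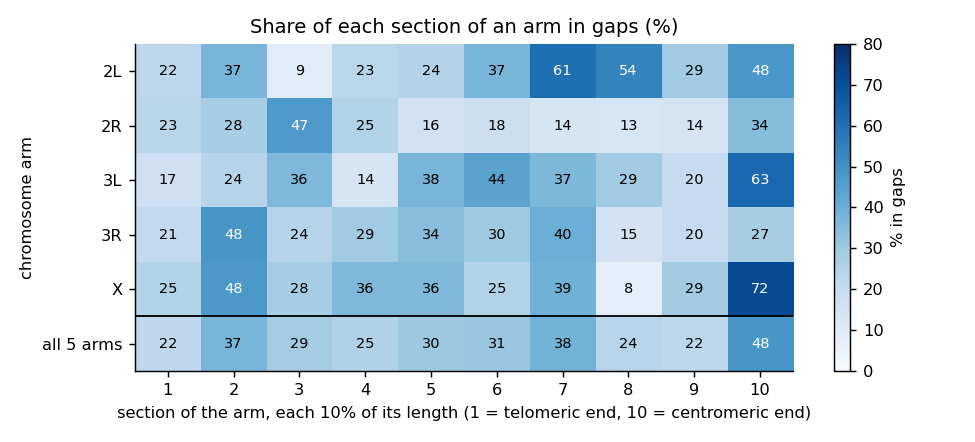
Percent of each of 10 equal sections of a large arm that lies in gaps, from the telomeric end (1) to the centromeric end (10), by arm (rows) and over all 5 arms (bottom row). The darkest cells are section 10 of X (71.8%) and 3L (62.8%), whereas that section is at 27.4% on 3R.

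The longest gap was on the X, at 21943643 to 22404598, and spanned 460956 bp. It held 11 weaker clusters of the combined list, 2 from replicate 1's own list and 3 from replicate 2's. The longest stretch in it with no cluster of any list was 150859 bp. In replicate 1 alone the longest free stretch was 290703 bp, and in replicate 2 alone it was 323042 bp. Its flanks were a cluster of 2492 bp with a score of 0.75 ± 0.07 (SD, n = 2) on the left and one of 8527 bp with 1.22 ± 0.03 on the right. On the same arm the gap at 21505136 to 21843403, 338268 bp long, was shorter and held fewer weaker calls. It held 2 weaker combined clusters and none from either replicate's own list, and a stretch of 213155 bp had no cluster of any list. Its 2 weaker clusters had combined scores of 1.82 and 1.16, against 0.40 to 0.72 for the 11 in the longest gap. The flanks of the 338268 bp gap scored 1.28 ± 0.09 and 1.41 ± 0.01. Both were above the median of 0.83 ± 0.03 for all reproducible clusters in the replicates.

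On 3L lay 3 of the 5 longest gaps, all in section 10. They were at 23342100 to 23663075 (320976 bp), 23733527 to 24019505 (285979 bp) and 24071215 to 24456404 (385190 bp). Replicate 1 had 0, 1 and 0 calls in them, and replicate 2 had 3, 4 and 1. Replicate 2 thus had more calls in each of these gaps. The single call of replicate 1, at 23972930 to 23974339, had a score of 2.74, the highest of any weaker call in a gap in that list. It overlapped neither a cluster of replicate 2 nor a cluster of the combined list. The longest free stretches in the 3 gaps were 141548, 213388 and 152141 bp. In the 385190 bp gap, replicate 1 was free of clusters from edge to edge.

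Among the 15 longest gaps, 6 were on X, 5 on 3L, 3 on 2L, 1 on 3R and 0 on 2R. The 10 that lay outside section 10 were 228783 to 265417 bp long. The X had 4 of these, at 7235905 to 7501321 (265417 bp), 12098800 to 12356083 (257284 bp), 14217663 to 14473523 (255861 bp) and 18800001 to 19046203 (246203 bp). That at 14217663 held a single weaker cluster, near its right end, and none in the replicates' own lists. It left 227647 bp with no cluster of any list, the longest such stretch in the 298 gaps. That at 18800001 held 6 weaker combined clusters, and its longest free stretch was 73548 bp. Gaps of similar length on the X thus ranged from nearly empty to interrupted by weaker calls.

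On 2L the gaps at 16889534 to 17130167 (240634 bp) and 17132023 to 17367648 (235626 bp) were parted by a single cluster of 1855 bp. Its combined score of 0.18 was among the lowest of the flanks, and it scored 0.23 in replicate 1 and 0.43 in replicate 2 (mean 0.33 ± 0.14, SD, n = 2). Without that weak cluster the pair would be a single gap of 478115 bp, longer than the longest on the X. The longest gap of 2L was at 14707473 to 14971269 (263797 bp). It held 1 weaker combined cluster, which was also in replicate 1's own list, and replicate 2 had none in it. Replicate 2 was therefore free over the whole 263797 bp, and replicate 1 over 172714 bp.

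The remaining gaps of the 15 longest were on 3L and 3R. That on 3R, at 12978578 to 13210590 (232013 bp), held 3 weaker combined clusters and 1 call in each replicate's own list, at different places. The calls left free stretches of 212337 bp in replicate 1 and 118806 bp in replicate 2. On 3L the gaps were at 9968873 to 10217360 (248488 bp), with 1 call in each replicate, and 6258841 to 6487623 (228783 bp), with 1 in replicate 1 and 2 in replicate 2. The longest gap of 2R ranked just after these, at 2156281 to 2380843 (224563 bp), and was the longest gap without a weaker call in any list.

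**Figure D3:**
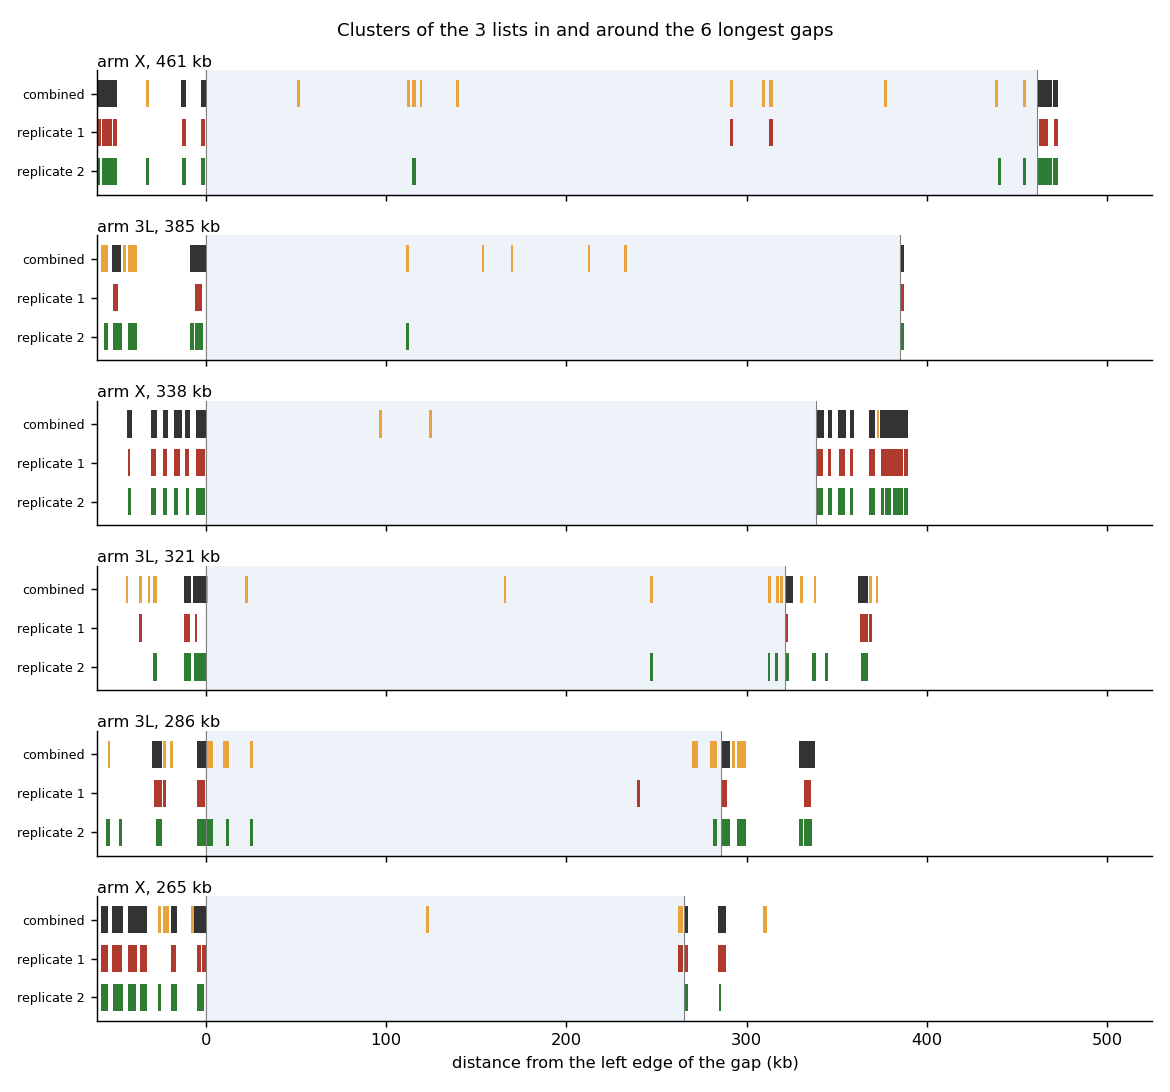
Clusters of the combined list and of each replicate's own list in and around the 6 longest gaps (shaded), as distance from the left edge of the gap in kb; black is a reproducible combined cluster, orange a weaker combined cluster, red replicate 1 and green replicate 2. Short clusters are drawn at least 1.5 kb wide; the 338 kb gap on X holds 2 weaker combined clusters and no replicate call, and the 461 kb gap on X holds 11.

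Most gaps held at least 1 weaker call, so they are long stretches without reproducible clusters rather than without any cluster. A weaker call was a combined-list cluster outside the reproducible set, or a replicate's cluster that touched no reproducible cluster. Of the 298 gaps, 57 (19.1%) held no weaker call in any of the 3 lists. This share depended on which clusters bound the gaps. It was 35% without replicate 2 (overlap required in replicate 1 alone), 25.4% without replicate 1, and 1.88% with only clusters at or above the median score as bounds. A combined-list cluster lay in the other 241, where 97 gaps held 1, 105 held 2 or 3 and 39 held 4 or more. For scale, 31.6% of all intervals and 28.8% of intervals under 70000 bp held such a cluster, and those intervals are far shorter. Across the 298 gaps, the number of weaker combined clusters and the length had a Spearman rho of 0.197, and a longer gap has more room for them. Replicate 1's own list had no call in 168 gaps (56.4%) and replicate 2's in 226 (75.8%). Both had a call in 32 gaps (10.7%). No call of replicate 1 in a gap overlapped a call of replicate 2, which the rule nearly fixes, since a combined cluster that overlaps both is reproducible and bounds a gap.

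Per Mb, weaker calls were fewer in the gaps than in the shorter intervals in every list. The gaps held 564 weaker combined clusters, or 15.4 per Mb, and the shorter intervals held 33.5 per Mb, a ratio of 0.461. In replicate 1's own list the values were 4.60 and 8.59 per Mb, a ratio of 0.536. In replicate 2's they were 2.79 and 7.30 per Mb, a ratio of 0.383. The mean ratio was 0.459 ± 0.11 (SD, n = 2), and it was below 1 in both. Of the 564, 301 overlapped neither replicate's list, 166 replicate 1's alone and 97 replicate 2's alone. Replicate 1 thus contributed more of the single-replicate calls in gaps than replicate 2, with 168 and 102 in their own lists.

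The weaker calls in gaps were short and mostly low in score. The medians over the 564 were 1593 bp in width, against 2668 bp for reproducible clusters, and 0.41 in score, against 0.78. Weaker combined clusters in the shorter intervals had medians of 1646 bp and 0.38. Only 58 of the 564 (10.3%) scored at or above the median of the combined list, and 10 scored 1 or more. The highest, 2.14, was a cluster of 1001 bp on 2R at 850280 to 851280 that neither replicate's list had. The next were on 2R at 748759 to 749759 (1.90) and 266943 to 267991 (1.84), and on X at 21601498 to 21602522 (1.82). Each of these 4 was absent from both replicates' lists. In replicate 1's own list 6 of 168 calls scored 1 or more, and in replicate 2's 2 of 102. Only 3 of those 168 and 4 of those 102 overlapped no combined-list cluster. Coverage of the gaps by each replicate's clusters, edges of flanking clusters included, was 0.794% in replicate 1 and 0.497% in replicate 2. For the main arms it was 14.7% and 14.2%. The rule fixes most of this difference, since clusters that make up a reproducible cluster lie outside the gaps except for overhanging edges.

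Weaker calls were spread through the gaps. Of the 564 weaker combined clusters, 184 (32.6%) had their midpoint in the middle part of the gap, with the gap divided into 3 equal parts. For the calls in the replicates' own lists this was 32.1% in replicate 1 and 26.5% in replicate 2. Within 10 kb of an edge lay 20.7% of the combined calls, 18.5% of those of replicate 1 and 25.5% of those of replicate 2, and these margins made up 16.3% of the gap length. The longest stretch per gap with no cluster of any list had a median of 74643.5 bp, and it was at least 70000 bp in 171 of the 298 gaps (57.4%).

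Over whole arms, weaker calls were densest in the gaps of the X. There were 21.9 weaker combined clusters per Mb of gap on X, 15.7 on 2R, 14.5 on 3L, 13.7 on 3R and 11.7 on 2L. Only 4 of 59 gaps on X (6.78%) were free of any call, against 53 of 239 (22.2%) on the autosomal arms. Each replicate's own list also had its highest value on the X, with 5.68 per Mb in replicate 1, where the next arm was 3R at 4.97, and 3.61 in replicate 2, where the next was 3L at 3.05. The X was also highest outside the gaps, where the shorter intervals had 46.5 weaker combined clusters per Mb on X and 27.1 to 35.4 on the other large arms. Weaker clusters in X gaps had a median score of 0.51, against 0.37 in autosomal gaps. The higher score was not particular to calls in gaps. Reproducible clusters that flanked no gap had a median of 0.94 on X, against 0.72 to 0.75 on the other large arms. Flanking clusters had 0.91 on X, against 0.68 to 0.74. With section 10 left out, a choice made after the values were seen, gaps of the X had 22.9 per Mb and those of the autosomal arms 12.8. In section 10 itself the X was not the highest, with 18.2 per Mb against 18.9 on the autosomal arms together, 28.8 on 2R and 20.9 on 2L.

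The 2 replicates differed in where their calls lay in the gaps. In the gaps centred in section 10, replicate 2 had 5.07 calls per Mb and replicate 1 had 3.32. In sections 1 to 9, replicate 1 had 1.72 to 5.69 per Mb and replicate 2 had 1.34 to 3.07, and replicate 1 was the higher in all of these except section 8. This contrast rests on 1 library each, and the difference was not tested. It was not the same on every arm. On 3R replicate 2 had no call in the gaps centred in section 10. On X replicate 1 had more calls in such gaps than replicate 2. The long gaps of 3L described above, with 3, 4 and 1 calls of replicate 2, are among the gaps of section 10. Over the 5 arms together, the density of weaker combined clusters was 18.7 per Mb in section 10. Of these 10.8 per Mb overlapped neither replicate, and both values were the highest of the 10 sections. By arm, section 10 was above the other sections together on 2L, 2R and 3L. It was below them on 3R (10.5 against 14.0 per Mb) and on X (18.2 against 22.9).

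**Figure D4:**
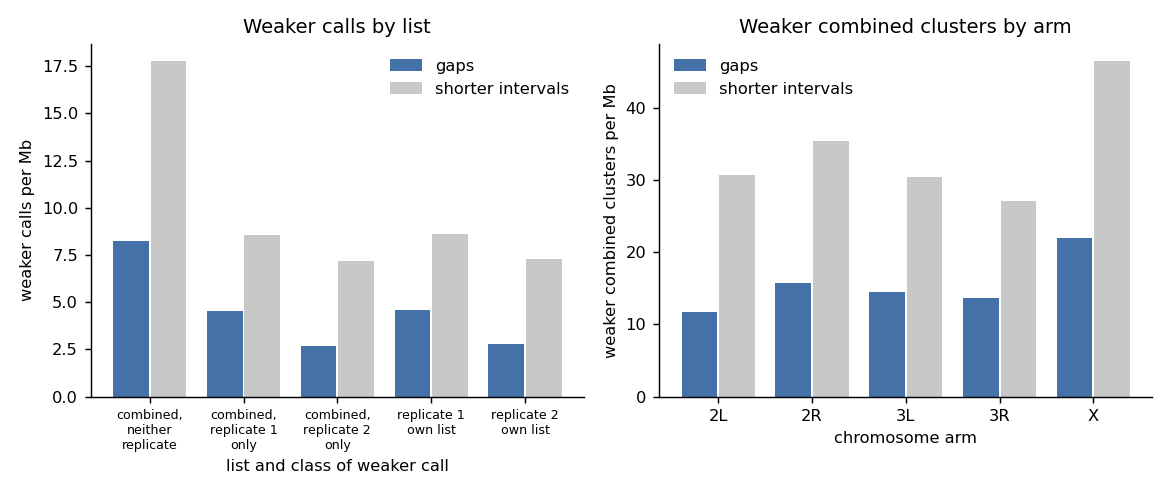
Weaker calls per Mb in the gaps (blue) and in intervals under 70000 bp (grey), by list and class (left) and, for the combined list, by chromosome arm (right). Gaps have the lower density in each pair, with 15.4 against 33.5 per Mb over all weaker combined clusters, and X has the highest value in both kinds of interval.

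The gaps richest in weaker calls lay on several arms. Those with the most combined-list calls were the longest gap on X and the 2L gap at 22474140 to 22686628 (212489 bp), with 11 each. In the 2L gap the longest free stretch was 47587 bp, or 22.4% of its length, the lowest share of the 298, and replicate 1 had 1 call in it and replicate 2 had 3. The next was on X at 4983198 to 5182841 (199644 bp) with 9, followed by 2R 1310087 to 1483391 (173305 bp) and 3L 6974336 to 7086330 (111995 bp) with 7 each, a number shared with other gaps. In the X and 3L gaps the replicate calls came from replicate 1 alone, 2 and 4 of them. In the 2R gap they came from replicate 2 alone, 3 of them. The 2R and 3L gaps came first among those with 7 by the tie order of arm and start. Others with 7 include X gaps starting at 1419934, 8820151 and 20989432, a 3L gap at 23342100 and a 3R gap at 9935352. Those at 8820151, 20989432 and 9935352 had calls of both replicates.

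The 57 gaps without any weaker call had a median length of 99034 bp, against 110479 bp for those with one. The 5 longest were the 2R gap of 224563 bp named above, 3R 23533654 to 23730450 (196797 bp), 3L 1972317 to 2149268 (176952 bp), 2L 11283056 to 11444756 (161701 bp) and 3L 15330679 to 15486525 (155847 bp). In the 2R gap, clusters of the replicates reached over the flanks by 7 bp in replicate 1 and 126 bp in replicate 2. The other 4 were empty from edge to edge in all 3 lists. None of the 5 was in section 10, although the 2R gap lay just outside it, at 89.3% of the arm from the telomere.

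The clusters that flank the gaps were ordinary in score and slightly narrower than others. There were 552 of them, since 44 lay between 2 gaps and were counted once. Their median combined score was 0.75, against 0.78 for the 4853 other reproducible clusters. The difference of -0.03 was -0.02 in replicate 1 and -0.04 in replicate 2 (mean -0.03 ± 0.01, SD, n = 2). With gaps rebuilt without replicate 2 it was -0.071. By arm it was positive on 2L (0.02) and 2R (0.01) and negative on 3L, 3R and X (-0.02, -0.07 and -0.03). On 2L it was 0.06 in replicate 1 and -0.06 in replicate 2, and on 2R -0.01 and 0.01, so the sign there was not settled by the replicates. Scores of flanks ranged from 0.16 to 2.53, and 12.1% of flanks were in the top 10% of reproducible clusters. The median width was 2457 bp, against 2696 bp for the others, and 9.96% of flanks were at least 5 kb wide, against 13.5%.

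Some flanks were strong sites. The highest-scoring was on 3L at 6896045 to 6898437, beside a gap of 111781 bp, with 2.66 in replicate 1 and 2.40 in replicate 2. The second was on 2R at 21069500 to 21071885, beside a gap of 95140 bp, with 2.62 and 1.98. On 3R the cluster at 12398512 to 12400840 scored 2.46 and 1.49 beside a gap of 74238 bp. On X the cluster at 5182842 to 5185025 closed the gap of 199644 bp with 9 weaker calls, and it scored 2.20 in replicate 1 and 1.10 in replicate 2. Replicate 1 was the higher at each of these 4, as was its median over all reproducible clusters (0.85 against 0.81). An offset between the lists enters such differences. The widest flank, at 3564397 to 3584432 on X, spanned 20036 bp with a combined score of 1.00.

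**Figure D5:**
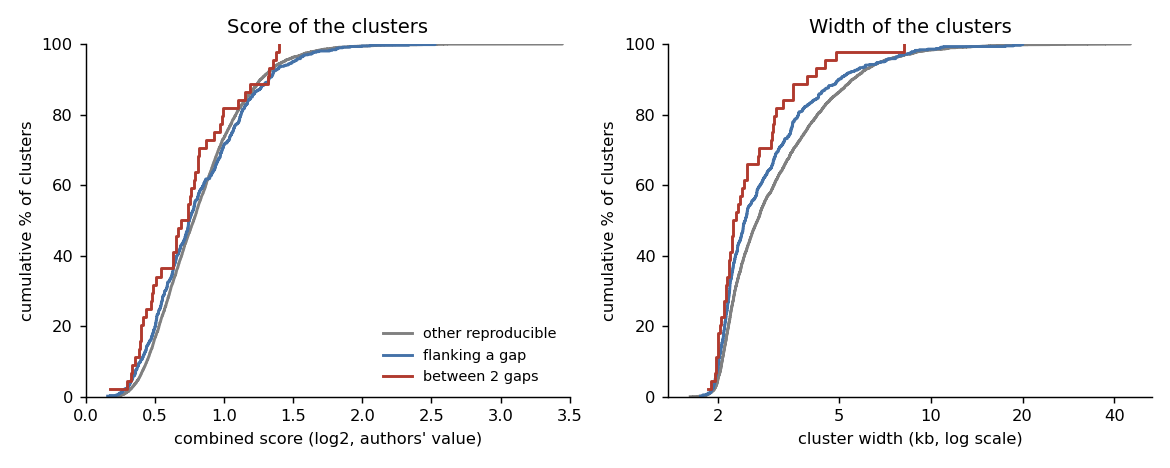
Cumulative percent of reproducible clusters by combined score (left, taken as log2) and by width (right, kb on a log axis). Curves are for the 552 clusters flanking a gap, the 44 of them that lie between 2 gaps and the 4853 others. The score curves run close together, with medians of 0.75, 0.71 and 0.78, and flanks are shifted to smaller widths.

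Gaps tended to neighbour each other along the arms. Of the 595 intervals next to a gap, 88 (14.8%) were themselves gaps, against 5.52% of all intervals, and their median length was 15486 bp, against 7614 bp. Only 40.0% of them were shorter than 10 kb, against 57.2% of all intervals. Of the 298 gaps, 214 stood alone, 72 formed 36 pairs parted by a single cluster, and 12 formed 4 runs of 3. The 44 clusters inside these pairs and runs were narrow (median 2264 bp), and 1 of them was at least 5 kb wide. Scores in replicates 1 and 2 had medians of 0.79 and 0.68, against 0.85 and 0.81 for the clusters that flanked no gap. They stand apart from their neighbours by at least 70000 bp on each side.

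The 4 runs of 3 gaps were on 3R, 2L, 3L and X. That on 3R, at 1689173 to 2170737, spanned 481565 bp with gaps of 142300, 159860 and 172820 bp. The clusters that part them had combined scores of 1.33 and 1.35. The first scored 1.39 in replicate 1 and 1.31 in replicate 2, and the second 1.77 and 0.79. That on 2L, at 15765124 to 16167238, spanned 402115 bp with gaps of 146715, 134173 and 116295 bp, of which the last 2 held no call in any list. Its parting clusters differed in strength, with scores of 0.52 ± 0.07 (SD, n = 2) and 1.41 ± 0.01. The run on 3L, at 13061138 to 13381980, spanned 320843 bp and its parting clusters scored 0.83 ± 0.03 and 0.37 ± 0.11. The run on X, at 9589120 to 9902920, spanned 313801 bp with parting clusters of 0.98 ± 0.23 and 0.75 ± 0.09. Gap sequence made up 98.4% to 98.8% of each run, and the parting clusters ranged from weak to well above the median.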

How the data were processed

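Sfmbt clusters of adult fly heads were analysed from 3 lists deposited by the authors, 1 for each ChIP replicate and 1 for both combined. The submitters' processing notes list Bowtie 0.12.7, and the build is FlyBase release 5, per the file headers. No source used here gives the peak caller or its threshold. No header states the scale of the deposited scores, and they were taken as log2 because, up to 1 constant per list, powers of 2 of 98.7% to 99.9% of them equal fractions with a denominator of at most 3000 (within 1e-11), against at most 0.595% for base e or 10. The constant sets an offset between lists. A replicate's score for a combined cluster is that of its highest overlapping cluster.

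Gaps, flanks and inner calls were found with Python 3.11.15, NumPy 2.4.6 and pandas 2.3.3, and gap finding was tested on simulated data. The centromere was taken at the high-coordinate end of X, 2L and 3L and the low end of 2R, 3R and 4. The gaps and summaries were chosen with earlier results of these data known. Regions named are the 15 longest gaps, the longest of each arm, the 5 with the most weaker combined clusters, the 5 longest without a call, those nearest the threshold and runs of 3 gaps, with ties by arm and start. Strongest calls and flanks were named after their values were seen. Alternatives were the minimum length, the overlap, the score and list of bounding clusters and leaving out a replicate.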

Additional observations from a re-analysis of the deposited data

How the results depend on the processing

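No paired analysis was possible because the inputs have no cluster list and no result comes from a test. A result counts as moved if it changed by more than the SD between the replicates' own lists, or for the number of gaps by over 1.5 times; why results moved was not tested. With a minimum of 50000 bp there were 521 gaps over 41.3% of the main arms, and with 100000 bp there were 170 over 21.5%, with 37.7% of gap length in the centromeric part of arms divided into 3 (34.8% as reported) and a ratio of weaker-cluster density of 0.439 (0.461 as reported). With clusters at or above the median score as bounds there were 479 gaps over 55.9%, 1.88% of them without a call, with a density ratio of 0.570 and a flank score difference of -0.0079. With all combined-list clusters as bounds there were 185 gaps over 16.1%, 98.4% of them without a call, with a flank difference of -0.083; no density ratio exists there. With replicate 1's own list, gaps took 25.1%, 35% had no call, the flank difference was -0.053 and 37.1% of gap length was in that part. With replicate 2's own list, gaps took 27.7% and the density ratio was 0.485. Leaving out a replicate's requirement gave 260 to 279 gaps, 25.1% to 27.5% of the arms, 25.4% to 35% without a call, density ratios of 0.449 to 0.469, flank differences of -0.071 to -0.029 and 34.2% to 37.3% in that part. Requiring overlap over at least 50% of the cluster gave 309 gaps and moved no result. The flank difference was negative in every alternative. Depth is unknown, so a gap does not show that binding was absent.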

Other observations

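Stretches at the ends of the arms have a reproducible cluster on 1 side only and so were not counted as gaps. The longest was at the telomeric end of 3L, where 122016 bp came before the first reproducible cluster and no list had a call. On chromosome 4 the end with the centromere had 61204 bp before the first reproducible cluster, also without a call in any list. The other arm ends were 8 to 37295 bp long. The longest interval between reproducible clusters on chromosome 4, at 726348 to 794829, was 68482 bp long and held 2 weaker combined clusters. It missed the minimum length by less than 2 kb, and in replicate 2's own list an interval of 70936 bp on that chromosome passed it.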
